A study of Homo sapiens with 12 samples.

Results

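The genes described here are 40 genes of glucose and lactate transport, glycolysis and the response to low oxygen, taken by symbol from the 58735 genes of the expression table. They fall into 4 transporters, 19 glycolytic enzymes with their regulators, and 17 hypoxia-linked genes, and all 40 entered the test. RNA was measured in 12 libraries of HaCaT cells, an immortalised line of human keratinocytes, in 4 groups of 3. Cells carried a control siRNA or an siRNA against PHGDH, which encodes phosphoglycerate dehydrogenase, the first enzyme of serine synthesis from a glycolytic intermediate. Each siRNA was studied without and with a treatment called Mix that lasted 24 h. Control-siRNA and PHGDH-siRNA name the groups without it, and Control-siRNA+Mix and PHGDH-siRNA+Mix those with it. What Mix contains, how many siRNA sequences were used and at which oxygen level the cells grew is not given in the sources used here. Nothing in the labels ties the 3 libraries of a group to separate cultures. The p-values therefore speak of the spread among these libraries, which may be technical.

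Glycolysis turns glucose into pyruvate in the cytosol. Glucose enters through facilitative transporters, is trapped by hexokinase phosphorylation, passes its main control point at phosphofructokinase, and leaves as lactate after reduction by lactate dehydrogenase and export by monocarboxylate transporters. Many of these genes, together with others for angiogenesis, pH control, mitophagy and collagen modification, are transcribed when hypoxia-inducible factor (HIF) binds response elements with the core ACGTG. HIF is controlled mainly through the stability of its alpha subunit, whose prolyl hydroxylation marks it for degradation, so the mRNA of HIF1A is not a measure of HIF activity. Other factors, MYC and inflammatory signals among them, act on the same genes.

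Sequence upstream of 7 of the genes is shown because these genes differ in response and in the presence of the HIF core motif. Each line holds the 250 bases before the RefSeq transcript start (GRCh38.p14), read 5′ to 3′ on the strand of the gene. Capitals mark ACGTG or its reverse complement CACGT, and CACGTG, where both overlap, was counted once.
HK2, chr2:74833877-74834126, plus strand: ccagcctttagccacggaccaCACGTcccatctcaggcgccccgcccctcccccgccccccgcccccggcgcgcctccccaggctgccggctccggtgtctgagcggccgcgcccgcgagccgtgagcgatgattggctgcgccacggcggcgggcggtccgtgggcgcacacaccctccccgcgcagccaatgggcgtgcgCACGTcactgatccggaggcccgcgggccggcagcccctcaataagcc
PGK1, chrX:78103998-78104247, plus strand: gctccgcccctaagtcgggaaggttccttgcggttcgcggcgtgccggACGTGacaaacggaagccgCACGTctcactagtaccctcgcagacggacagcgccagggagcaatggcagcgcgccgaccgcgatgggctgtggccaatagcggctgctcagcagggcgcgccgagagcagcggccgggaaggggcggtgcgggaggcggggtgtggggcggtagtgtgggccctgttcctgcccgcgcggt
LDHA, chr11:18394313-18394562, plus strand: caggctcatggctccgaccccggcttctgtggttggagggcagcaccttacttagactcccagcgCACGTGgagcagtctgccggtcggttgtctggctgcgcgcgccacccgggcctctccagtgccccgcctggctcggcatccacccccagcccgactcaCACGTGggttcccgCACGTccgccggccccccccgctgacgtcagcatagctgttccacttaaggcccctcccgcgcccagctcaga
BNIP3, chr10:131981924-131982173, minus strand: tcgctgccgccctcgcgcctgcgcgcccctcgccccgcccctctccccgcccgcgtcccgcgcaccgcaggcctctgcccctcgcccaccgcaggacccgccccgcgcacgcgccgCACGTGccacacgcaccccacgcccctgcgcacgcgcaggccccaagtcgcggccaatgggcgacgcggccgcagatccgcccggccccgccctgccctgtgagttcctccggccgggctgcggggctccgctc
ANGPTL4, chr19:8363905-8364154, plus strand: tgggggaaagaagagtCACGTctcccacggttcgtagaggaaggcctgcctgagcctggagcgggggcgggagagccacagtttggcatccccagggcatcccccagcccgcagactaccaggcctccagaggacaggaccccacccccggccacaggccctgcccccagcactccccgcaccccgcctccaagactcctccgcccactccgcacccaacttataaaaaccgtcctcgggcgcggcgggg
CA9, chr9:35673678-35673927, plus strand: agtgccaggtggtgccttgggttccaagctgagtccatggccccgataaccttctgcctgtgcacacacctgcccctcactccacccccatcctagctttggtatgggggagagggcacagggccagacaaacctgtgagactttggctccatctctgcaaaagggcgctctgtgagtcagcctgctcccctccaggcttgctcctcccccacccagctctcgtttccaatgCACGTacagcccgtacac
SLC16A3, chr17:82228185-82228434, plus strand: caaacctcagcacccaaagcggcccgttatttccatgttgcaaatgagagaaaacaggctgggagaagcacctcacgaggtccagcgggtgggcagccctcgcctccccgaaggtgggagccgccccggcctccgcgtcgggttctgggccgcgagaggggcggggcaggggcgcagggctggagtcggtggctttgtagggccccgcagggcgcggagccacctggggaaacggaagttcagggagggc
Of these, HK2 (hexokinase 2), PGK1 (phosphoglycerate kinase 1), LDHA (lactate dehydrogenase A), BNIP3 (a mitophagy receptor) and ANGPTL4 (a secreted inhibitor of lipoprotein lipase) rose with Mix under control siRNA and hold the motif. CA9, a carbonic anhydrase of the cell surface, holds it and was lower with Mix in both siRNA arms. SLC16A3, the lactate exporter MCT4, rose in both and holds no ACGTG in this window. Across the 40 genes, 34 had an upstream window in the RefSeq table, and 14 of those 34 (41.2%) held the motif. The motif was in 8 of 19 glycolytic genes, 6 of 13 hypoxia-linked genes and 0 of 2 transporters. Among all 27305 windows of the table, 18.7% held it, and among the 9369 windows of tested genes, 23.8%. It was present in 6 of the 10 matched genes that rose with Mix under control siRNA and in 8 of the 24 that did not pass. The other common form of the HIF core, GCGTG, read on both strands in the same windows, was less frequent among the 34 (12, 35.3%) than among tested genes (45.8%), and was in 31.9% of all windows. It was in 4 of the 10 that rose and 8 of the 24 that did not pass. A match describes letters only and is no evidence of binding.

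Reads recovered from the values came to 16403845 to 20901128 per library, and 21348 to 22510 genes were above 0. The siRNA target PHGDH averaged 46.2 ± 9.84 FPKM (SD, n = 3) in Control-siRNA and 20.2 ± 3.44 in PHGDH-siRNA. With Mix it averaged 29.9 ± 2.88 and 14.6 ± 3.96. The siRNA groups did not overlap for PHGDH in either condition, although its log2 fold changes of -1.14 and -1.01 did not pass the test (adjusted p = 0.128 and 0.2, limma). FPKM is a read count scaled to gene length and library total. The length counts all annotated exons of a gene, used or not, so levels of different genes compare only roughly. All 10 keratinocyte markers averaged 1 FPKM or more in every group. Summed over the markers of each other type, no library exceeded 2.11 FPKM for fibroblasts, 1.26 for melanocytes, 2.96 for leukocytes or 0.975 for endothelial cells. Of these markers, PTPRC, TYR and KDR were at 0 in all 12 libraries. The leukocyte marker CD14 averaged 1 FPKM or more in every group. Of the fibroblast markers, COL3A1 did so in Control-siRNA, COL1A1 in PHGDH-siRNA and PHGDH-siRNA+Mix, and none in Control-siRNA+Mix. The summed keratinocyte markers moved with Mix, from 2093 to 3079 FPKM in Control-siRNA up to 5166 to 5579 with Mix. Not all 10 rose: KRT5 was lower with Mix, 298 to 327 FPKM against 356 to 550. PERP overlapped between these groups, and the other markers were higher. The part of these markers in the results below was not tested. In bulk RNA, a change in the share of a type of cell and a change in RNA per cell cannot be told apart. In both PHGDH-siRNA groups replicate 2 stood apart from the other libraries, also in the genes described here, and counts are therefore also given without these 2 libraries. The fit pools the spread of all 4 groups, so SEs and p-values under control siRNA carry these 2 libraries too.

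Under control siRNA, Mix raised 12 of the 40 genes and lowered none at an adjusted p under 0.05, which is 30% of them against 9.54% of all 14577 genes tested (5.62% higher, 3.92% lower). The 12 were SLC2A3, SLC16A3, HK1, HK2, PGK1, LDHA, BNIP3, ADM, ANGPTL4, NDRG1, P4HA2 and ANKRD37. The median log2 fold change of FPKM + 1 over the 40 genes was 0.57, and over all genes tested it was 0.00. In 33 of the 40 the 3 Mix libraries did not overlap the 3 libraries without it, 31 of them higher, and 2 lower, PFKM and CA9. Of all genes 37.8% did not overlap, 19.1% higher and 18.7% lower. At an unadjusted p under 0.05, 24 of the 40 passed, against 22.1% of all genes. By role, 2 of 4 transporters rose (median 0.80), 4 of 19 glycolytic genes (median 0.40) and 6 of 17 hypoxia-linked genes (median 0.90). The count was 5 when Control-siRNA replicate 3 or any 1 of the 3 Control-siRNA+Mix libraries was left out, when 4.5% to 4.95% of all genes passed. It was 24 (22 higher, 2 lower) without the PHGDH-siRNA replicate 2 libraries, when 20.8% of all genes passed. Same-numbered libraries did not deviate together in this arm; the replicate number as a block gave 17 calls, against 7.41% of all genes.

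Under PHGDH siRNA, Mix raised 9 of the 40 genes and lowered 1, CA9, which is 25% against 8.86% of all genes tested (5.22% higher, 3.64% lower). The 9 were SLC2A3, SLC16A3, HK1, HK2, LDHA, BNIP3, ANGPTL4, NDRG1 and P4HA2. All 9 had also risen under control siRNA, so that they are 9 of the 12 calls there and 9 of the 10 here. The median log2 fold change was 0.46, with 0.72 for the transporters, 0.28 for the glycolytic genes and 0.57 for the hypoxia-linked genes, against 0.00 for all genes. Groups did not overlap in 14 of the 40 genes, 13 higher and 1 lower, against 21.5% of all genes (11.3% higher, 10.3% lower). At an unadjusted p under 0.05, 17 of the 40 passed, against 22% of all genes. Same-numbered libraries of these 2 groups deviated together, and with the replicate number as a block 22 genes passed, 20 higher and 2 lower, as did 27.1% of all genes. Leaving out PHGDH-siRNA replicate 2 gave 17 calls, against 11.3% of all genes. Leaving out replicates 1 and 3 of that group gave 5 and 4 (5.17% and 4.52% of all genes). Without PHGDH-siRNA+Mix replicates 1, 2 and 3 there were 6, 8 and 3 (6.15%, 10.1% and 5.06% of all genes). Without both replicate 2 libraries 19 genes passed, 18 of them higher, against 15.1% of all genes.

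**Figure D1:**
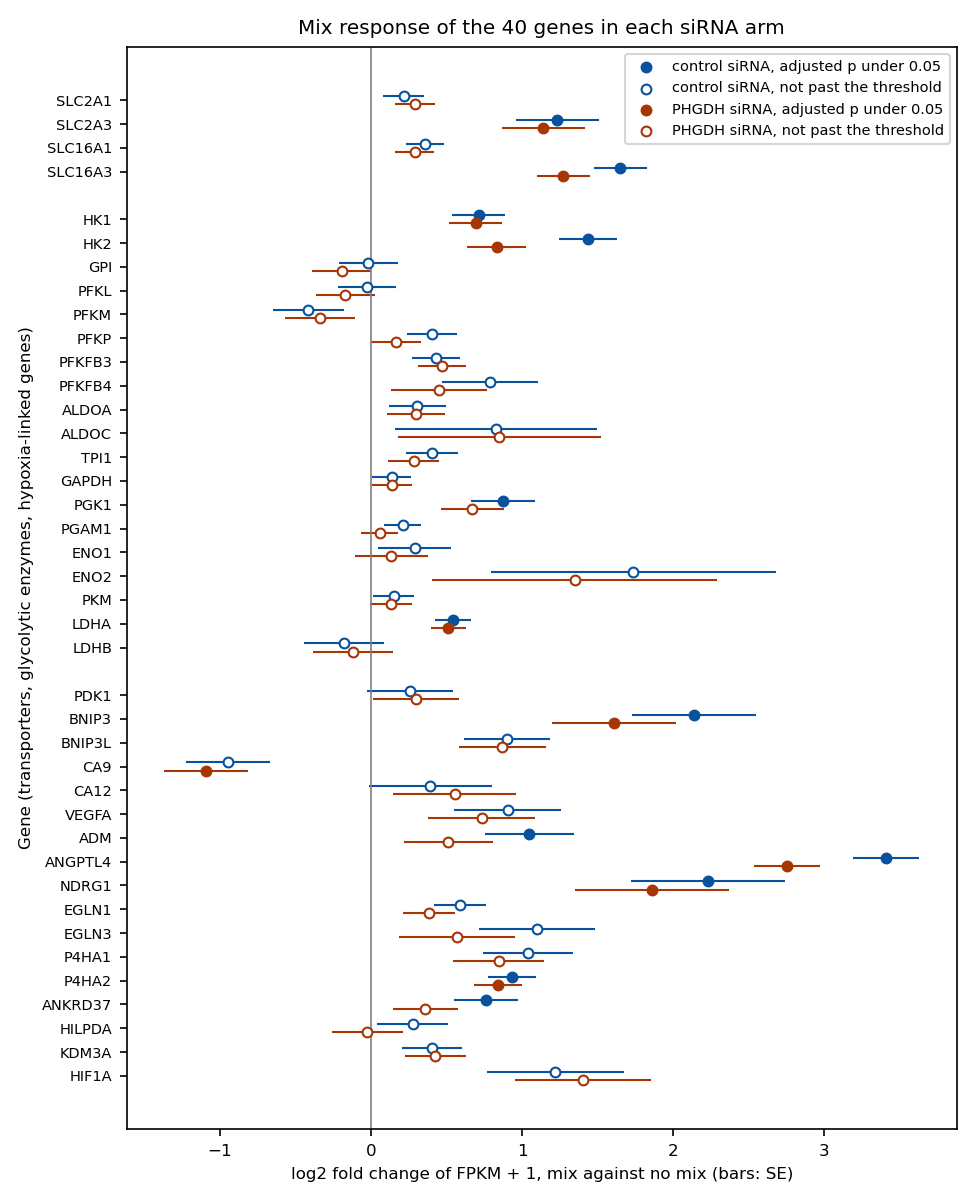
Log2 fold change of FPKM + 1 with Mix for each of the 40 genes (rows, grouped as transporters, glycolytic enzymes and hypoxia-linked genes) under control siRNA (blue) and PHGDH siRNA (brown), with bars for the SE and filled points for an adjusted p under 0.05. ANGPTL4 lies farthest right in both arms at 3.41 and 2.75, and CA9 farthest left at -0.94 and -1.09.

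Of the 2 glucose transporters, 1 rose with Mix. SLC2A1 encodes GLUT1, the main basal glucose transporter of keratinocytes. It stood at 37.6, 41.8 and 40.1 FPKM in Control-siRNA, 48.1, 44.9 and 46.3 with Mix, 38.9, 41.5 and 31.8 in PHGDH-siRNA and 47.0, 51.6 and 39.4 with both. Mix libraries were all higher than their controls under control siRNA and overlapped them under PHGDH siRNA. Its log2 fold changes were small, 0.22 ± 0.13 (SE) and 0.29 ± 0.13, and did not pass (adjusted p = 0.399 and 0.229). In the blocked fit the second had an adjusted p of 0.0204.

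SLC2A3 encodes GLUT3, a glucose transporter of high affinity best known from neurons. It was at 2.06, 2.51 and 1.91 FPKM in Control-siRNA, 6.33, 6.22 and 6.67 with Mix, 9.47, 4.72 and 8.95 in PHGDH-siRNA and 22.3, 11.0 and 21.8 with both. Every Mix library was above every untreated library of its arm, and every PHGDH-siRNA library was above every control-siRNA library of the same condition. Replicate 2 was the lowest library of each PHGDH-siRNA group. The Mix change was 1.23 ± 0.27 under control siRNA (adjusted p = 0.0166) and 1.14 ± 0.27 under PHGDH siRNA (adjusted p = 0.0255). These 2 calls held in 9 and 8 of 14 alternative settings. Between siRNAs it was 1.42 higher without Mix and 1.33 higher with it, a ratio of mean FPKM of 3.57 and 2.87, with adjusted p = 0.151 and 0.2. Without both replicate 2 libraries, the lowest of their groups for this gene, the same differences were 1.70 and 1.64. Both then passed (adjusted p = 0.000449 and 0.000609, limma). Each difference passed in only this 1 of 14 alternative settings. In this setting SLC2A3 was the only one of the 39 genes still tested to pass in either siRNA comparison. SLC2A3 has a near-identical copy, SLC2A14, listed at no more than 0.0597 FPKM in any library, and reads shared by the 2 genes may have been split or dropped.

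Of the 2 lactate carriers, 1 rose. SLC16A3 encodes MCT4, the exporter typical of glycolytic cells. It measured 2.15, 4.29 and 3.55 FPKM in Control-siRNA, 13.3, 11.4 and 12.1 with Mix, 4.61, 5.34 and 4.20 in PHGDH-siRNA and 13.7, 13.3 and 11.3 with both. No untreated library reached any Mix library. It rose by 1.65 ± 0.18 and 1.27 ± 0.18 (adjusted p = 0.00017 and 0.00128), in all 14 alternative settings of each arm. SLC16A1, which encodes the widely expressed carrier MCT1, ranged from 26.0 to 35.0 FPKM in Control-siRNA and from 37.9 to 38.2 with Mix. Under PHGDH siRNA it ranged from 30.0 to 36.5 and from 41.0 to 42.3. Its changes of 0.36 and 0.29 did not pass (adjusted p = 0.113 and 0.212), although the Mix groups lay above their controls in both arms, and the blocked fit gave the second an adjusted p of 0.0435.

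**Figure D2:**
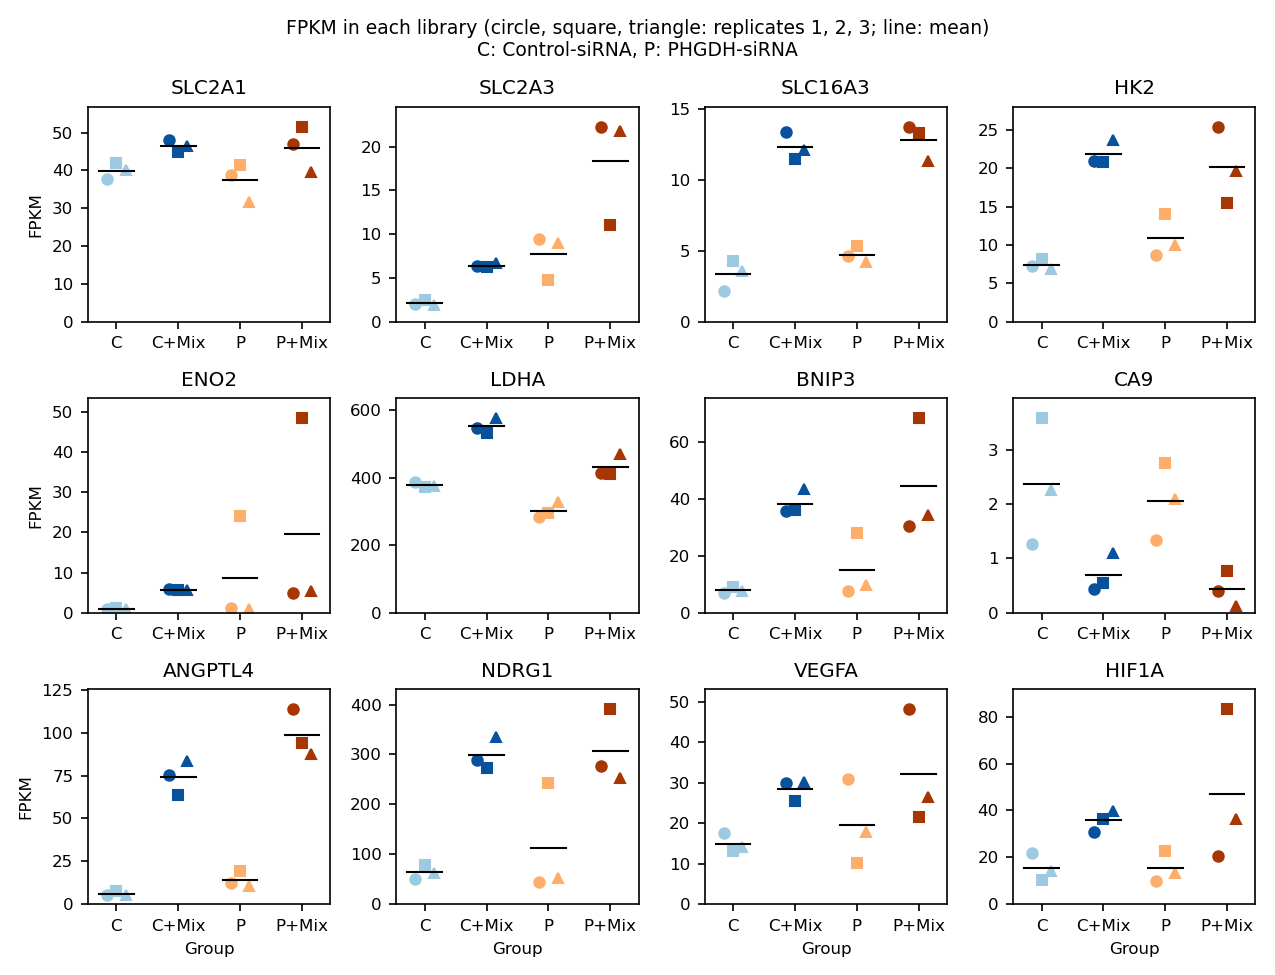
FPKM of 12 genes in each library by group (C, Control-siRNA; P, PHGDH-siRNA), with circles, squares and triangles for replicates 1, 2 and 3 and a line at the mean. SLC16A3 and ANGPTL4 separate Mix from no Mix in both arms, while the square of replicate 2 lies far above the others for ENO2 and HIF1A in PHGDH-siRNA+Mix and far below for SLC2A3.

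Hexokinases open the pathway by phosphorylating glucose. HK2, the inducible form, was at 7.26, 8.17 and 6.91 FPKM in Control-siRNA, 21.0, 20.9 and 23.7 with Mix, 8.72, 14.1 and 9.98 in PHGDH-siRNA and 25.5, 15.5 and 19.7 with both. The Mix libraries lay above the untreated ones in both arms, by the least in replicate 2 under PHGDH siRNA. HK2 rose by 1.44 ± 0.19 under control siRNA (adjusted p = 0.00083) and by 0.83 ± 0.19 under PHGDH siRNA (adjusted p = 0.0221). The first held in all 14 alternatives and the second in 7, with a blocked adjusted p of 0.0789. HK1, the constitutive form, ranged from 23.8 to 29.8 FPKM in Control-siRNA, 44.1 to 46.8 with Mix, 26.3 to 43.4 in PHGDH-siRNA and 46.9 to 55.9 with both. It rose by 0.71 ± 0.18 and 0.69 ± 0.18 (adjusted p = 0.0291 and 0.0348), in 6 and 5 of 14 alternatives.

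No gene of the phosphofructokinase step passed the test with Mix in either arm. PFKFB3 makes fructose 2,6-bisphosphate, the allosteric activator of phosphofructokinase. It stood at 14.4, 19.6 and 20.3 FPKM in Control-siRNA, 25.4, 22.9 and 25.2 with Mix, 15.1, 17.5 and 14.3 in PHGDH-siRNA and 25.4, 18.2 and 23.0 with both. The groups did not overlap in either arm, and the changes of 0.43 ± 0.16 and 0.47 ± 0.16 did not pass (adjusted p = 0.128 and 0.0999). The second did not pass in the blocked fit either. Of the phosphofructokinase subunits, the platelet form PFKP was the most abundant, at 87.4 ± 18.8 FPKM in Control-siRNA, against 25.6 ± 4.15 for the muscle form PFKM and 18 ± 4.04 for the liver form PFKL. Their Mix changes under control siRNA were 0.41, -0.41 and -0.03 (adjusted p = 0.17, 0.35 and 0.967). The muscle form was the one glycolytic gene whose Mix libraries all lay below the untreated ones in that arm, and its change under PHGDH siRNA, -0.34, passed in the blocked fit (adjusted p = 0.0417). PFKFB4, a second bifunctional enzyme of the same kind, averaged 2.10 ± 0.52 and 4.31 ± 0.27 FPKM without and with Mix under control siRNA, a change of 0.79 with adjusted p = 0.166. GPI, the isomerase just before this step, averaged 43.1 ± 4.61 and 42.4 ± 1.13 FPKM in those groups, and its changes of -0.02 and -0.19 did not pass (adjusted p = 0.979 and 0.632).

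By FPKM, the 7 most abundant transcripts of the set in Control-siRNA were enzymes of the later steps. GAPDH averaged 1510 ± 89.9 FPKM in Control-siRNA, TPI1 466 ± 111, ENO1 430 ± 73.2, PKM 406 ± 45.8, LDHA 379 ± 6.90, PGAM1 318 ± 36.2 and PGK1 211 ± 29.9. Among these 7, only PGK1, the first step to yield ATP, and LDHA passed in the Mix comparison under control siRNA. PGK1 ranged from 178 to 236 FPKM without Mix and from 363 to 408 with it. It rose by 0.87 ± 0.21 (adjusted p = 0.0248, 7 of 14 alternatives). Under PHGDH siRNA it ranged from 185 to 315 and from 327 to 432, with no overlap. Its change there, 0.67 ± 0.21, did not pass unblocked (adjusted p = 0.0774) and passed with the block (adjusted p = 0.0126). GAPDH, the glyceraldehyde 3-phosphate dehydrogenase often taken as a reference gene, changed by 0.14 in each arm (adjusted p = 0.639 and 0.597). TPI1, PGAM1, ENO1 and PKM changed by 0.15 to 0.40 under control siRNA and 0.06 to 0.28 under PHGDH siRNA, with none past the threshold. TPI1 passed under PHGDH siRNA in the blocked fit (adjusted p = 0.0249).

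LDHA, the lactate dehydrogenase subunit that favours lactate production, was at 387, 373 and 376 FPKM in Control-siRNA, 546, 533 and 577 with Mix, 282, 297 and 327 in PHGDH-siRNA and 414, 410 and 469 with both. Mix libraries were above untreated ones in both arms, and PHGDH-siRNA libraries were below control-siRNA libraries in both conditions, with no overlap. With Mix it rose by 0.54 ± 0.12 and 0.51 ± 0.12 (adjusted p = 0.0154 and 0.0215), in 8 and 10 of 14 alternatives. Its siRNA differences, -0.33 ± 0.12 without Mix and -0.36 ± 0.12 with Mix, did not pass (adjusted p = 0.64 and 0.693), nor did they in any of 14 alternatives. LDHB, the subunit that favours pyruvate, averaged 8.72 ± 2.62 FPKM in Control-siRNA and 7.45 ± 1.16 with Mix (-0.18, adjusted p = 0.784). It shares 33.4% of its exonic bases with a same-strand gene model, as does ALDOA with 42.3%, so that the levels of these 2 genes are uncertain. ALDOA, the main muscle aldolase, was listed at 9.39 ± 2.03 FPKM in Control-siRNA and 11.7 ± 0.814 with Mix (0.31, adjusted p = 0.397).

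ENO2, the neuronal enolase, was at 0.984, 1.27 and 0.841 FPKM in Control-siRNA, 5.87, 5.57 and 5.79 with Mix, 1.23, 24.0 and 1.08 in PHGDH-siRNA and 4.90, 48.5 and 5.52 with both. Mix libraries were above untreated ones in every same-numbered pair, and replicate 2 of each PHGDH-siRNA group was several times above all the rest. The changes of 1.74 ± 0.94 and 1.35 ± 0.94 did not pass (adjusted p = 0.326 and 0.456; blocked 0.0082 in the second). Both SEs come from the pooled spread, which includes the replicate 2 libraries of the PHGDH-siRNA groups. Without both libraries the changes were 1.74 and 1.53 and passed (adjusted p = 4.3e-06 and 6.94e-05). ALDOC, the brain aldolase, was also far higher in replicate 2 of both PHGDH-siRNA groups. Its replicate 2 values under PHGDH siRNA were 62.5 FPKM without Mix and 57.9 with it, against 7.18 and 7.93, and 20.5 and 20.4, in replicates 1 and 3. Its Mix changes of 0.83 and 0.85 did not pass (adjusted p = 0.552 and 0.521). Without both libraries they were 0.83 and 1.33 and passed (adjusted p = 0.00367 and 0.00112).

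The widest Mix change of the 40 genes was that of ANGPTL4. It was at 5.36, 7.84 and 5.18 FPKM in Control-siRNA, 75.2, 63.8 and 83.5 with Mix, 12.3, 19.3 and 10.8 in PHGDH-siRNA and 114, 94.1 and 87.8 with both. All 4 groups were apart from one another. Mean FPKM was 12.1 times higher with Mix under control siRNA and 6.98 times higher under PHGDH siRNA. On the log2 scale this was 3.41 ± 0.22 and 2.75 ± 0.22 (adjusted p = 3.87e-06 and 3.67e-05), past the threshold in all 14 alternatives of each arm. Between siRNAs the difference was 1.06 ± 0.22 without Mix (adjusted p = 0.173) and 0.41 ± 0.22 with Mix (adjusted p = 0.955).

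BNIP3 and NDRG1 followed. BNIP3 was at 6.94, 9.09 and 7.81 FPKM in Control-siRNA, 35.7, 35.9 and 43.4 with Mix, 7.60, 27.9 and 9.88 in PHGDH-siRNA and 30.3, 68.4 and 34.2 with both. Mix and untreated libraries did not overlap in either arm, and replicate 2 was the highest library of both PHGDH-siRNA groups. It rose by 2.14 ± 0.41 under control siRNA (adjusted p = 0.00759, all 14 alternatives) and by 1.61 ± 0.41 under PHGDH siRNA (adjusted p = 0.0332, 7 of 14). NDRG1, a stress-responsive gene linked to differentiation, was at 50.3, 78.1 and 62.1 FPKM in Control-siRNA, 288, 272 and 334 with Mix, 43.4, 243 and 52.6 in PHGDH-siRNA and 278, 391 and 254 with both. Under PHGDH siRNA the untreated replicate 2, at 243, was just below the lowest Mix library, at 254. NDRG1 rose by 2.23 ± 0.51 and 1.86 ± 0.51 (adjusted p = 0.0195 and 0.0455), in 8 and 5 of 14 alternatives.

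P4HA2, a collagen prolyl hydroxylase subunit, was at 6.57, 8.41 and 7.18 FPKM in Control-siRNA, 15.3, 14.7 and 14.8 with Mix, 9.0, 11.6 and 7.97 in PHGDH-siRNA and 17.5, 21.5 and 14.7 with both. Mix libraries were above untreated ones in both arms. It rose by 0.93 ± 0.16 and 0.84 ± 0.16 (adjusted p = 0.00412 and 0.00855), in 14 and 13 of 14 alternatives. The other subunit, P4HA1, averaged 25.5 ± 1.71 FPKM in Control-siRNA and 53.4 ± 2.48 with Mix, and its change of 1.04 lay just outside the threshold (adjusted p = 0.0539). Under PHGDH siRNA it changed by 0.84 (adjusted p = 0.118; blocked 0.0218).

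ADM, which encodes the vasodilator peptide adrenomedullin, was at 17.1, 26.1 and 21.1 FPKM in Control-siRNA, 43.6, 41.7 and 49.3 with Mix, 25.9, 13.3 and 19.3 in PHGDH-siRNA and 34.3, 16.7 and 35.0 with both. Replicate 2 was the lowest library of both PHGDH-siRNA groups. ADM rose under control siRNA by 1.05 ± 0.29 (adjusted p = 0.0488, 6 of 14 alternatives), and the change of 0.51 ± 0.29 under PHGDH siRNA did not pass (adjusted p = 0.353; blocked 0.0389). With Mix all PHGDH-siRNA libraries were below all control-siRNA libraries, a difference of -0.69 ± 0.29 (adjusted p = 0.832), or -0.36 without both replicate 2 libraries. ANKRD37, an ankyrin repeat gene known as a HIF target, ranged from 0.731 to 1.37 FPKM in Control-siRNA and 2.08 to 2.58 with Mix. It rose by 0.76 ± 0.21 (adjusted p = 0.0487, 3 of 14 alternatives), and its 0.36 under PHGDH siRNA did not pass (adjusted p = 0.37). It shares 35.2% of its exonic bases with UFSP2 on the other strand, and strand handling in counting is not given in the sources used here.

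CA9 went the other way. It was at 1.26, 3.58 and 2.25 FPKM in Control-siRNA, 0.447, 0.554 and 1.1 with Mix, 1.34, 2.75 and 2.09 in PHGDH-siRNA and 0.400, 0.777 and 0.130 with both. Every Mix library was below every untreated library of its arm. The change was -0.94 ± 0.28 under control siRNA (adjusted p = 0.0579) and -1.09 ± 0.28 under PHGDH siRNA, where it fell (adjusted p = 0.0338, 8 of 14 alternatives). Mean FPKM was 3.38 and 4.72 times lower with Mix. These levels rest on 4 to 107 reads per library, and 38.5% of its exonic bases lie opposite ARHGEF39. CA12, the other surface carbonic anhydrase of the set, stayed under 0.5 FPKM in all control-siRNA libraries and reached 0.805 and 3.24 FPKM in replicate 2 of the PHGDH-siRNA groups. It met the minimum mean of 0.5 FPKM for testing only in PHGDH-siRNA+Mix (1.23 FPKM), where replicates 1 and 3 were at 0.183 and 0.259. Under control siRNA its groups did not overlap, on 10 to 15 reads without Mix and 53 to 61 with it. Its Mix changes of 0.39 and 0.55 did not pass (adjusted p = 0.668 and 0.487).

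VEGFA, the angiogenic growth factor, was at 17.5, 13.0 and 14.0 FPKM in Control-siRNA, 29.9, 25.5 and 30.1 with Mix, 30.8, 10.1 and 17.9 in PHGDH-siRNA and 48.2, 21.6 and 26.5 with both. Under control siRNA the groups did not overlap, and under PHGDH siRNA they did, with replicate 1 the highest and replicate 2 the lowest of both groups. Its changes of 0.90 ± 0.35 and 0.73 ± 0.35 did not pass (adjusted p = 0.157 and 0.262; blocked 0.0156 in the second). PDK1, the kinase that restrains pyruvate dehydrogenase, was at 0.648, 0.462 and 0.505 FPKM in Control-siRNA, 0.733, 0.786 and 0.999 with Mix, 0.329, 1.77 and 0.537 in PHGDH-siRNA and 0.650, 2.25 and 0.963 with both. It was low throughout, and its changes of 0.26 ± 0.28 and 0.30 ± 0.28 did not pass (adjusted p = 0.692 and 0.605).

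HIF1A, the oxygen-regulated alpha subunit, was at 21.8, 10.1 and 14.2 FPKM in Control-siRNA, 31, 36.4 and 39.7 with Mix, 9.78, 22.7 and 13.4 in PHGDH-siRNA and 20.5, 83.3 and 36.5 with both. Control-siRNA groups did not overlap, and PHGDH-siRNA groups did through replicate 2 without Mix and replicate 1 with it. Its changes of 1.22 ± 0.45 and 1.40 ± 0.45 did not pass (adjusted p = 0.132 and 0.0867; blocked 0.0104 in the second), and passed without both replicate 2 libraries (adjusted p = 0.015 and 0.0489). The HIF prolyl hydroxylases EGLN1 and EGLN3, themselves HIF targets, changed by 0.59 and 1.1 under control siRNA (adjusted p = 0.0539 and 0.111). Under PHGDH siRNA they changed by 0.38 and 0.57 (adjusted p = 0.215 and 0.439), and EGLN1 passed with the block (adjusted p = 0.018). BNIP3L, the partner of BNIP3 in mitophagy, changed by 0.90 and 0.87 (adjusted p = 0.0797 and 0.0925; blocked 0.00547 in the second). KDM3A, a histone demethylase, changed by 0.40 and 0.43 (adjusted p = 0.276 and 0.244; blocked 0.0298 in the second). HILPDA, a lipid droplet protein, changed by 0.28 and -0.02 (adjusted p = 0.578 and 0.973).

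Neither siRNA comparison called any of the 40 genes. Without Mix, 0.0412% of all genes passed (6 genes; 0.0137% higher, 0.0274% lower), and with Mix 0.0206% (3 genes; 0.0137% higher, 0.00686% lower). At an unadjusted p under 0.05, 5 of the 40 genes (6.41% of all genes) passed without Mix and 3 (5.72% of all genes) with Mix, and voom on recovered reads also called 0 of the 40 in each. The median log2 difference between siRNAs was 0.19 without Mix, with 28 genes higher and 12 lower under PHGDH siRNA, and -0.00 with Mix, with 20 on each side. The matching medians and splits of all genes tested are not reported here. Groups did not overlap in 4 genes without Mix, against 10.2% of all genes (4.89% higher, 5.3% lower). SLC2A3, HK2 and ANGPTL4 were higher and LDHA lower. With Mix there were 7, against 14.3% of all genes (7.01% higher, 7.33% lower). SLC2A3, SLC16A1, HK1 and ANGPTL4 were higher and PGAM1, LDHA and ADM lower. Without both replicate 2 libraries the median was -0.03 (17 higher, 22 lower) and -0.12 (10 higher, 29 lower), and the median of the hypoxia-linked genes went from 0.21 to -0.12 without Mix. In that fit 0.696% and 0.379% of all genes passed.

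**Figure D3:**
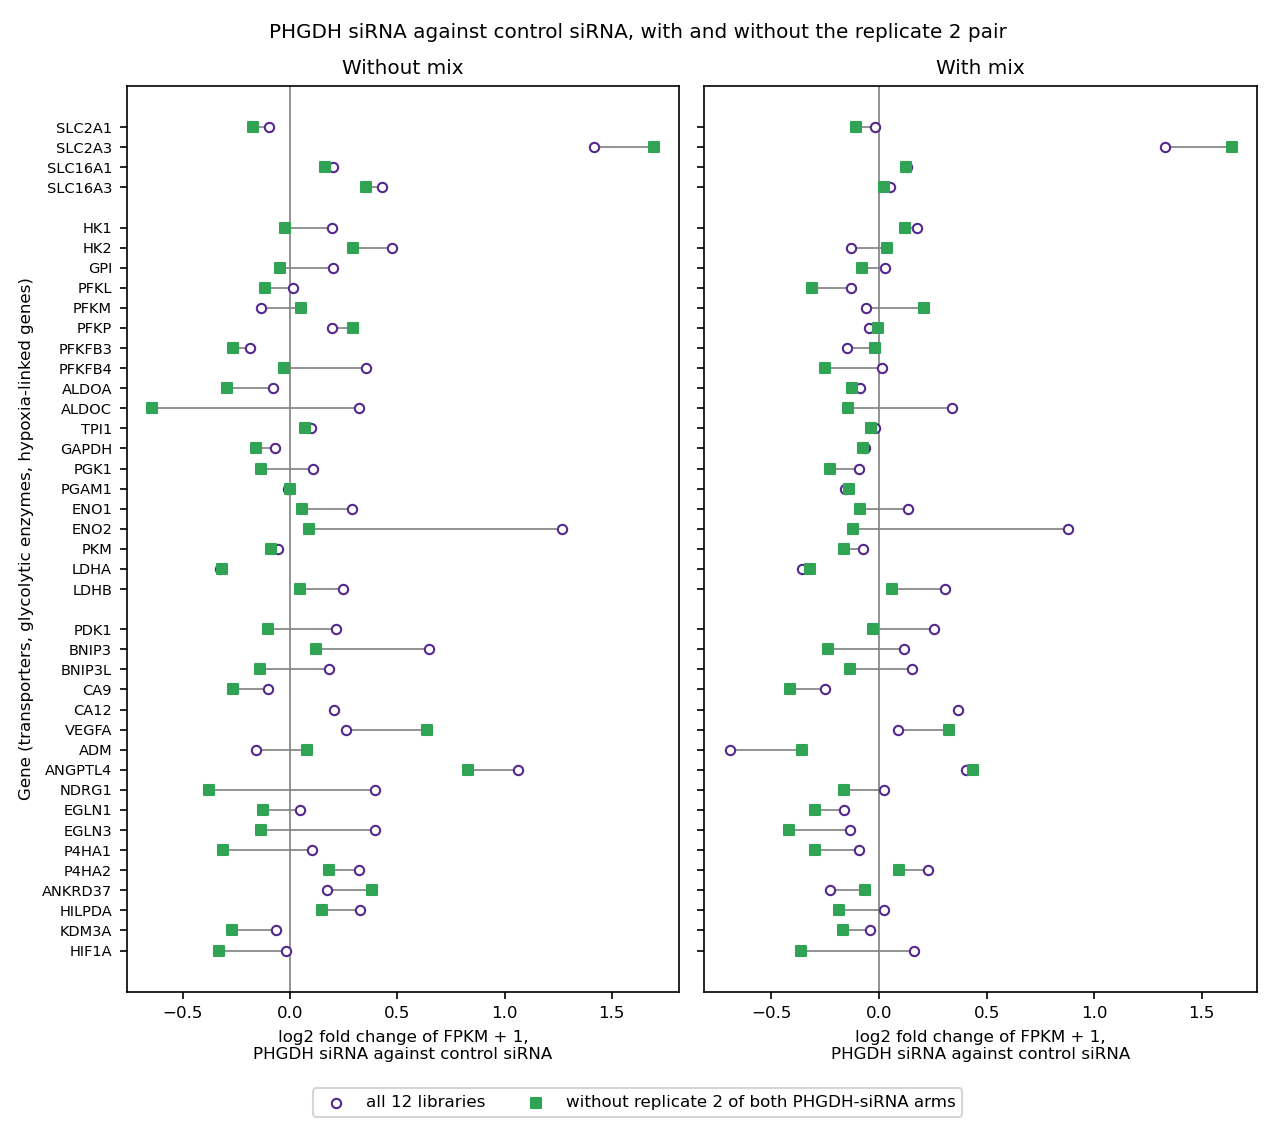
Log2 difference of FPKM + 1 between PHGDH siRNA and control siRNA for each gene, without Mix (left) and with Mix (right), from all 12 libraries (open circles) and without replicate 2 of both PHGDH-siRNA arms (green squares, no value for CA12). SLC2A3 is the farthest to the right in both panels in either fit, while ENO2 moves from 1.27 to 0.09 without Mix and from 0.88 to -0.12 with it once the replicate 2 libraries are left out.

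No difference in Mix response between the siRNA arms passed the test. The interaction, which subtracts the Mix change with control siRNA from that with PHGDH siRNA, passed for 0 of the 40 genes and 0% of all genes in limma. At an unadjusted p under 0.05 it reached 1 of the 40, HK2, against 1.72% of all genes, and voom called 0 as well. Its median was -0.14, with 30 genes lower and 10 higher, and -0.09 without both replicate 2 libraries. Of all genes tested, 48.8% lay below the value of ALDOA, -0.009, and 52.3% below that of GAPDH, 0.006. The largest values were -0.66 ± 0.31 for ANGPTL4, -0.61 ± 0.27 for HK2 and -0.53 ± 0.42 for ADM, each with an adjusted p of 1. For HK2 the value was -0.25 without both replicate 2 libraries and for ANGPTL4 -0.39.

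Replicate 2 of the PHGDH-siRNA groups was compared with the mean of replicates 1 and 3 of the same group, as a description. It was higher in both groups for 29 of the 40 genes (72.5%), against 39.5% of all genes tested, and for 13 of the 17 hypoxia-linked genes. The lead was over 1 log2 unit in both for ENO2, ALDOC and BNIP3 (7.5%), against 1.97% of all genes. ENO2 led with 3.54 without Mix and 3.00 with Mix. In both groups 8 genes were lower (20%, against 41.6% of all genes), SLC2A3, VEGFA, ADM, ANKRD37, PFKM, PFKP, LDHA and PGAM1, with -0.71 and -1.01 for ADM. In the control-siRNA groups replicate 2 was higher in both for 8 of the 40 genes, against 26.7% of all genes, and by over 1 log2 unit for none. The summed keratinocyte markers ranged from 2584 to 7173 FPKM in PHGDH-siRNA and from 5386 to 8943 with Mix, and KRT14, named after its values were seen, reached 2986 and 2737 FPKM in the 2 replicate 2 libraries against 548 to 617 and 1082 to 1092 in the others. Their part in the gene values was not tested.

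**Figure D4:**
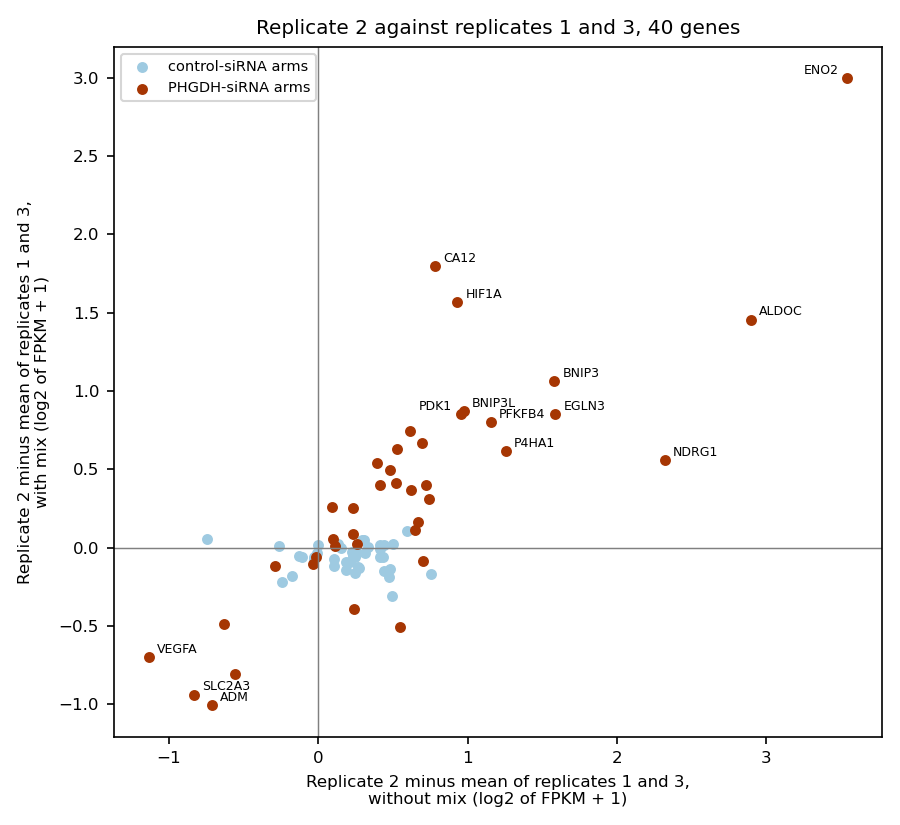
Replicate 2 minus the mean of replicates 1 and 3 in log2 of FPKM + 1 for each of the 40 genes, without Mix (horizontal axis) and with Mix (vertical axis), in the control-siRNA arms (blue) and the PHGDH-siRNA arms (brown). The control-siRNA points stay near the centre, while ENO2, at 3.54 and 3.00, and ALDOC lie far to the upper right and SLC2A3, VEGFA and ADM to the lower left.

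Neighbouring pathways were read from lists of other genes, whose counts stand against 9.54% of all genes called under control siRNA and 8.86% under PHGDH siRNA. Of 13 other sugar and monocarboxylate transport genes tested, SLC2A6, a lysosomal member of the glucose transporter family, rose with Mix under control siRNA (1.42, adjusted p = 0.0136), and none passed under PHGDH siRNA. Of 16 other genes of glycolysis, gluconeogenesis and glycogen, 2 rose and 1 fell in each arm. Those that rose were GYS1 (glycogen synthase; 0.53 and 0.48) and GBE1 (glycogen branching enzyme; 0.56 and 0.47). The one that fell was FBP1, the gluconeogenic fructose bisphosphatase, from 5.33 ± 0.89 to 0.982 ± 0.136 FPKM under control siRNA (-1.67, adjusted p = 0.0034) and from 2.43 ± 1.24 to 0.617 ± 0.402 under PHGDH siRNA (-1.04, adjusted p = 0.0414).

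Of 9 pentose phosphate genes, 2 fell and 0 rose in each arm. TKT (transketolase) fell in both, with -0.93 under control siRNA (adjusted p = 0.00188) and -0.65 under PHGDH siRNA (adjusted p = 0.0168). PRPS2, a phosphoribosyl pyrophosphate synthetase, fell under PHGDH siRNA (-0.58, adjusted p = 0.0499). Of 19 genes of pyruvate oxidation and the citric acid cycle, 1 rose and 5 fell under control siRNA, and 1 rose and 3 fell under PHGDH siRNA. The gene that rose was PC, pyruvate carboxylase, by 0.57 in each arm. FH (fumarase; -0.55 and -0.55), MDH2 (mitochondrial malate dehydrogenase; -0.59 and -0.55) and SUCLG1 (a succinyl-CoA ligase subunit; -0.46 and -0.38) fell in both, and PDK2, a kinase of pyruvate dehydrogenase (-0.73), and CS, citrate synthase (-0.44), under control siRNA.

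Of 12 other HIF regulators tested, ARNT2, a partner subunit of HIF alpha proteins, rose in both arms (1.18 and 0.97, adjusted p = 4.9e-05 and 0.000251). EPAS1, which encodes HIF-2 alpha, rose under PHGDH siRNA by 1.08 (adjusted p = 0.0246; 0.89 and 0.0538 under control siRNA), as did VHL, the ubiquitin ligase subunit that recognises hydroxylated HIF alpha, by 0.51 (adjusted p = 0.012). Of 26 other reported hypoxia targets, 4 rose and 2 fell under control siRNA and 2 rose under PHGDH siRNA, the latter near the share of all genes. BHLHE40, a transcriptional repressor, rose by 1.61 and 1.41 in the 2 arms (adjusted p = 3.32e-05 and 0.000121). Under control siRNA INSIG2, which holds the sterol sensor SCAP in the endoplasmic reticulum, rose by 0.93 and TMEM45A by 0.51. BHLHE41, the relative of BHLHE40, fell by 1.35 and GPRC5A, an orphan receptor, fell by 0.62. With the replicate block under PHGDH siRNA, the 6 lists gave, in the order above, 3 higher and 1 lower, 3 and 3, 0 and 5, 2 and 8, 5 and 0, and 9 and 1, in a fit where 27.1% of all genes passed. Without the 2 replicate 2 libraries the other hypoxia targets gave 9 higher and 2 lower under control siRNA and 7 and 1 under PHGDH siRNA, of 25 tested, where 20.8% and 15.1% of all genes passed. No gene of these 6 lists passed in either siRNA comparison or in the interaction.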

How the data were processed

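The table deposited by the authors gives FPKM per gene for 12 libraries. HISAT2 2.0.5, CASAVA, the build hg38 and featureCounts 1.5.0-p3 appear in the submitters' processing notes. Multiplied by gene length, the values became whole multiples of a step per library, from which reads were recovered (100% of those at 200 reads or fewer came within 0.05 of a whole number). A gene was tested where its mean reached 0.5 FPKM in at least 1 group (14577 genes), with limma 3.58.1 (R 4.3.3; trend and robust) on log2(FPKM + 1), 1 mean per group over all 12 libraries, 8 residual degrees of freedom. P-values were two-sided, Benjamini-Hochberg adjusted over all genes tested, threshold 0.05. Fold changes on this scale understate those of low genes. An exact permutation test of 3 against 3 cannot go below 0.1. The script was tested on simulated data, with known changes put into the Mix comparison under control siRNA. It recovered 22 of 76 1.5-fold changes (28.9%), 58 of 59 2-fold changes (98.3%) and 65 of 65 4-fold changes (100%). Beside these true calls stood 16 false calls among all genes. Changes were put only into genes averaging over 200 reads, so these rates do not cover genes of few reads. Changes near 1.5-fold were thus mostly missed. No outlying replicate was simulated, so the real data can do worse. Members, lists and tests were chosen with earlier results of these data known.

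Values in every library were given for members past the threshold (the 8 lowest adjusted p per comparison, others by range), for 11 genes listed by name and for the 3 largest changes per comparison. Other pathway lists gave up to 4 genes past the threshold per comparison; GPRC5A, INSIG2 and CS lie outside this rule and were named after their values were seen. Deviations from group means correlated at 0.69, 0.775 and 0.459 between same-numbered libraries of the PHGDH-siRNA arms. Blocked values are therefore given there for some genes. Most of these are genes that passed with the block and not in the unblocked fit over all 12 libraries. Blocked values of the other genes are not reported here. The 3 deviations of a group are tied by their mean. Replicate 2, apart in both groups, therefore weighs on all 3 correlations. For a Mix or siRNA comparison, the blocked fit used only the libraries of the 2 groups compared. It had fewer residual degrees of freedom than the fit over all 12 libraries. Upstream sequences are from RefSeq. No set test was run. Some genes of the other lists are not reported here by name.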

Additional observations from a re-analysis of the deposited data

How the results depend on the processing

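No called result reversed. A median with no call, that of the hypoxia-linked genes between siRNAs without Mix, went from 0.21 to -0.12 without replicate 2 of both PHGDH-siRNA arms. The number of the 40 genes past the threshold moved most in the Mix comparisons. The share of all genes that passed in the same fit follows each count. Under control siRNA (12; 9.54%) it was 6 (2.89%) with no filter on low values, 24 (20.8%) without replicate 2 of both PHGDH-siRNA arms, 22 (18.1%) in a fit of the 2 groups alone, and 5 to 9 (4.5% to 8.37%) when 1 library was left out. Under PHGDH siRNA (10; 8.86%) it was 6 (9.84%) with quantile normalization, 4 (2.34%) with no filter, 19 (15.1%) without the replicate 2 pair, 2 (1.63%) in a fit of the 2 groups alone, and 3 to 17 (4.52% to 11.3%) when 1 library was left out. With the replicate number as a block it was 22 (27.1%) there, 17 (7.41%) under control siRNA, and 0 in both siRNA comparisons and the interaction. Outside the PHGDH-siRNA arms, deviations of same-numbered libraries correlated at -0.387 to 0.27. The labels do not say whether these libraries are pairs. Each siRNA comparison gave 1, SLC2A3, without the replicate 2 pair. Leaving out the replicate 2 pair changed no Mix log2 fold change under control siRNA, but the pooled spread and the set of genes tested. For ENO2 that change was 1.74 in both fits, with adjusted p = 0.326 and 4.3e-06 (limma). The cause of the other shifts was not tested.

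Calls kept in all alternatives were SLC16A3, HK2, BNIP3, ANGPTL4 and P4HA2 under control siRNA and SLC16A3 and ANGPTL4 under PHGDH siRNA. With voom, all tested genes shifted by a median of -0.06 and -0.10 in the Mix comparisons, and their calls split 736 higher and 788 lower under control siRNA (main 819 and 572) and 643 and 860 under PHGDH siRNA (main 761 and 530). Quantile normalization gave 752 and 794, and 717 and 717. Members still gave 11 calls higher and 0 lower with voom under control siRNA, and 8 and 1 with quantile normalization, where CA9 fell. Depth limits genes of few reads, such as CA9, with 4 to 107 reads per library.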

Other observations

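Proportions within pairs of related genes are given as shares of summed FPKM, with no test. HK2 made up 18.8% to 23.3% of HK1 and HK2 together in Control-siRNA and 30.9% to 35.0% with Mix. Under PHGDH siRNA its share was 23.9% to 27.5% without Mix and 32.5%, 21.7% and 29.6% with it. SLC2A3 made up 4.54% to 5.66% of SLC2A1 and SLC2A3 in Control-siRNA, 11.6% to 12.6% with Mix, 10.2% to 22% in PHGDH-siRNA and 17.6% to 35.6% with both. Replicate 2 held the lowest share of each PHGDH-siRNA group for this pair.

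The export carriers and the phosphofructokinase subunits are given in the same way. SLC16A3 was 5.79% to 14.2% of SLC16A1 and SLC16A3 in Control-siRNA and 23.0% to 26.0% with Mix, and 10.3% to 13.3% and 21.1% to 25.1% under PHGDH siRNA. PFKP took 65.7% to 67.1% of the 3 subunits in Control-siRNA and 75.4% to 76.7% with Mix, and 68.7% to 71.6% and 75.9% to 76.3% under PHGDH siRNA. BNIP3 was 37.6% to 44.8% of BNIP3 and BNIP3L in Control-siRNA and 62.6% to 64.2% with Mix. ENO2 stayed a minor share of ENO1 and ENO2, 0.187% to 0.282% in Control-siRNA and 1.07% to 1.14% with Mix, and reached 3.24% and 5.87% in replicate 2 of the PHGDH-siRNA groups.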
